A study of Mus musculus with 42 samples.

Results

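The genes of cholesterol and fatty acid synthesis were followed in mouse kidney over the day, in animals on chow or on an EpSA diet. The group holds 32 genes of the 56691 in the deposited tables: 21 of the sterol arm and 11 of the fatty acid arm. They were chosen by name, but with earlier results of these data known. Shares of all genes given beside their counts below are therefore a description and not a test of the group. All 32 reached the mean of 1 FPKM (a level scaled by transcript length and by the reads of the library) that was required for testing. Kidneys came from wild-type male C57BL/6 mice that were 6 weeks old at the start and were kept in 12 h of light and 12 h of dark. One diet was a standard chow, and the other a high-fat diet with 3% EpSA. EpSA is epoxystearic acid, an oxidised fatty acid that forms when oil is heated. Each diet was eaten for 14 weeks. Organs were collected at 7 zeitgeber times (ZT, counted in hours from lights on), namely 1, 5, 9, 13, 17, 21 and 25, and the labels list 3 mice for each diet and time, 42 in all. The study's high-fat diet lacking EpSA was not analysed here, and the effects of fat and of EpSA therefore cannot be told apart.

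Cells make cholesterol from acetyl-CoA through mevalonate, isoprenoid units, squalene and lanosterol, and they make fatty acids from acetyl-CoA through malonyl-CoA. Genes of both routes are controlled by sterol regulatory element binding proteins (SREBPs): SREBP-2, from Srebf2, acts mainly on the sterol genes, and SREBP-1, from Srebf1, mainly on the fatty acid genes. When sterols are plentiful, INSIG proteins hold the SREBP precursors in the endoplasmic reticulum and transcription of these genes is low. Tubule epithelium makes up most of the kidney, and the fat around the organ makes fatty acids too.

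The deposited columns are the authors' means, 1 for each diet and time, and the 14 of them are called pools here. No spread between mice can be given, depth is unknown, and every standard error (SE) and p-value below rests on the spread between times. In whole kidney, a lower level cannot be told apart from fewer cells that carry the gene. The 10 proximal tubule markers were all found in every pool. Their differences of EpSA from chow lay between -0.33 (Slc22a7) and 0.39 (Slc5a12) on the log2(FPKM + 1) scale. Of these 10, 0 passed the adjusted test for diet, which only 0.0150% of all genes passed as lower and 0.00749% as higher. That count therefore cannot show whether the tubule content was equal. Some pools stood apart. The adrenal cortex genes Hsd3b1, Cyp21a1 and Star were at 50.4, 27.3 and 17.7 FPKM in the EpSA pool of ZT 9, against at most 0.08, 0.053 and 1.56 in chow. In the chow pool of ZT 21 the androgen-regulated tubule gene Kap reached 62960 FPKM, its highest value. The summed FPKM of 12 fat tissue markers, none of them at 0 in any pool, ran from 168 to 392 in chow and from 95.7 to 438 in EpSA. Adipoq, Plin1, Ucp1 and Car3 were each found in every pool, with Ucp1 of brown fat between 3.88 and 90.0 FPKM.

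Promoter windows of 300 bases, from 250 before to 50 after a start site, were on hand for 25 of the 32 members in RefSeq (build GRCm38.p6), 31 windows in all. They were searched on both strands for CACGTG (the E-box core read by clock and SREBP factors), TCACNCCAC (a sterol response element) and CCAAT (the NF-Y box, which often lies beside sterol elements). None of the 3 motifs contains another. CCAAT was in 16 of 20 sterol arm windows (80%) and in 6 of 11 fatty acid arm windows (54.5%), against 37.4% of all 32851 windows. CACGTG was in 4 of 20 sterol arm windows (20%) and 0 of 11 of the fatty acid arm, against 7.15%, and TCACNCCAC was in 1 window, that of Hmgcs1, against 1.24%. The windows below are those of Mvk, Idi1 and Srebf2, the sterol members with the lowest p for diet, of Hmgcs1, chosen after its match was seen, and of Fads2, the fatty acid member with the lowest p. They run 5′ to 3′ on the gene's strand, and capitals mark CCAAT, its reverse complement ATTGG, and TCACNCCAC.
Mvk (chr5:114444019-114444318, plus strand): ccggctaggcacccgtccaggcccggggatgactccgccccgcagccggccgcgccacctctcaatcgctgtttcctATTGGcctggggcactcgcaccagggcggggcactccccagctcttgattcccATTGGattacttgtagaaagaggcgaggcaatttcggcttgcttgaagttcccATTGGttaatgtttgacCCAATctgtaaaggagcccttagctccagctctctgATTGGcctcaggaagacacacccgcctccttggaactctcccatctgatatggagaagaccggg
Idi1 (chr13:8885356-8885655, plus strand): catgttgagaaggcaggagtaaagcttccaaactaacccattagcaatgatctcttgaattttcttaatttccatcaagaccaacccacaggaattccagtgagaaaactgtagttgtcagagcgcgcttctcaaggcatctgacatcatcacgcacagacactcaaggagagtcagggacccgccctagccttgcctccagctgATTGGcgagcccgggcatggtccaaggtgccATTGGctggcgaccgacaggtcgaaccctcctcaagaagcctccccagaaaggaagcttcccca
Srebf2 (chr15:82147019-82147318, plus strand): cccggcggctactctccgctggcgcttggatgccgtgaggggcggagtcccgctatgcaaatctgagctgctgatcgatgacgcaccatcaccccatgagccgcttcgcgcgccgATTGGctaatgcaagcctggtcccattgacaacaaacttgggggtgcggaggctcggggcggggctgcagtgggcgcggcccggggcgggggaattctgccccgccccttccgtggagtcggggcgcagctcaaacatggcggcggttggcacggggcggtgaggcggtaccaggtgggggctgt
Hmgcs1 (chr13:119690101-119690400, plus strand): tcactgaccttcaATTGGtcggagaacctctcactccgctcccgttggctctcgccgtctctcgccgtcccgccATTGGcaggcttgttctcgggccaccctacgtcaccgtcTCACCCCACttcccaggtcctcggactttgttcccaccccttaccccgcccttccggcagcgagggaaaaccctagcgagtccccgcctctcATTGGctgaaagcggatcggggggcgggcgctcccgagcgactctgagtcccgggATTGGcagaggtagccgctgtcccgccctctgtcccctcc
Fads2 (chr19:10101454-10101753, minus strand): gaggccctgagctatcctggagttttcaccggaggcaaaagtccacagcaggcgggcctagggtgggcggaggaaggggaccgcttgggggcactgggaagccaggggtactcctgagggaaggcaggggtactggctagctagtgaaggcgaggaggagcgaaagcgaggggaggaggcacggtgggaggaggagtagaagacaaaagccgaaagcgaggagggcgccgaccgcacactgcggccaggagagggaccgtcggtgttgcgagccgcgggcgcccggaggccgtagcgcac
The Mvk window held 5 CCAAT boxes, that of Hmgcs1 4, that of Idi1 2, that of Srebf2 1 and that of Fads2 0. A match is a string of letters, and binding was not measured.

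The members differed widely in level. On the FPKM scale, averaged over the 14 pools, Me1 (malic enzyme, a source of NADPH for synthesis) stood at 140 and Hmgcs1 (HMG-CoA synthase) at 126. Their values over the 14 pools overlapped, from 119 to 172 and from 92.5 to 153. Below them came Scd1 (stearoyl-CoA desaturase) at 62.7, Cyp51 (lanosterol demethylase) at 56.7, Fads2 (delta-6 desaturase) at 45.0, Acat2 (cytosolic acetoacetyl-CoA thiolase) at 38.7, Ebp (sterol isomerase) at 34.6 and Acly (ATP citrate lyase) at 32.5. Each pair of neighbours in that order overlapped between pools. The lowest were Fdps (farnesyl diphosphate synthase) at 1.92 and Acaca (acetyl-CoA carboxylase 1) at 1.55. Mouse Acat2 and Fdps have close copies in the genome, so their reads may be shared with those copies. In GENCODE M21, 11 members overlap a gene on the other strand, 5 of them a protein-coding one. Fdft1 overlaps Ctsb by 774 bases, and Ctsb had a mean of 97.9 FPKM against 6.66 for Fdft1. Whether counting used strand was not given in the sources used here.

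**Figure D1:**
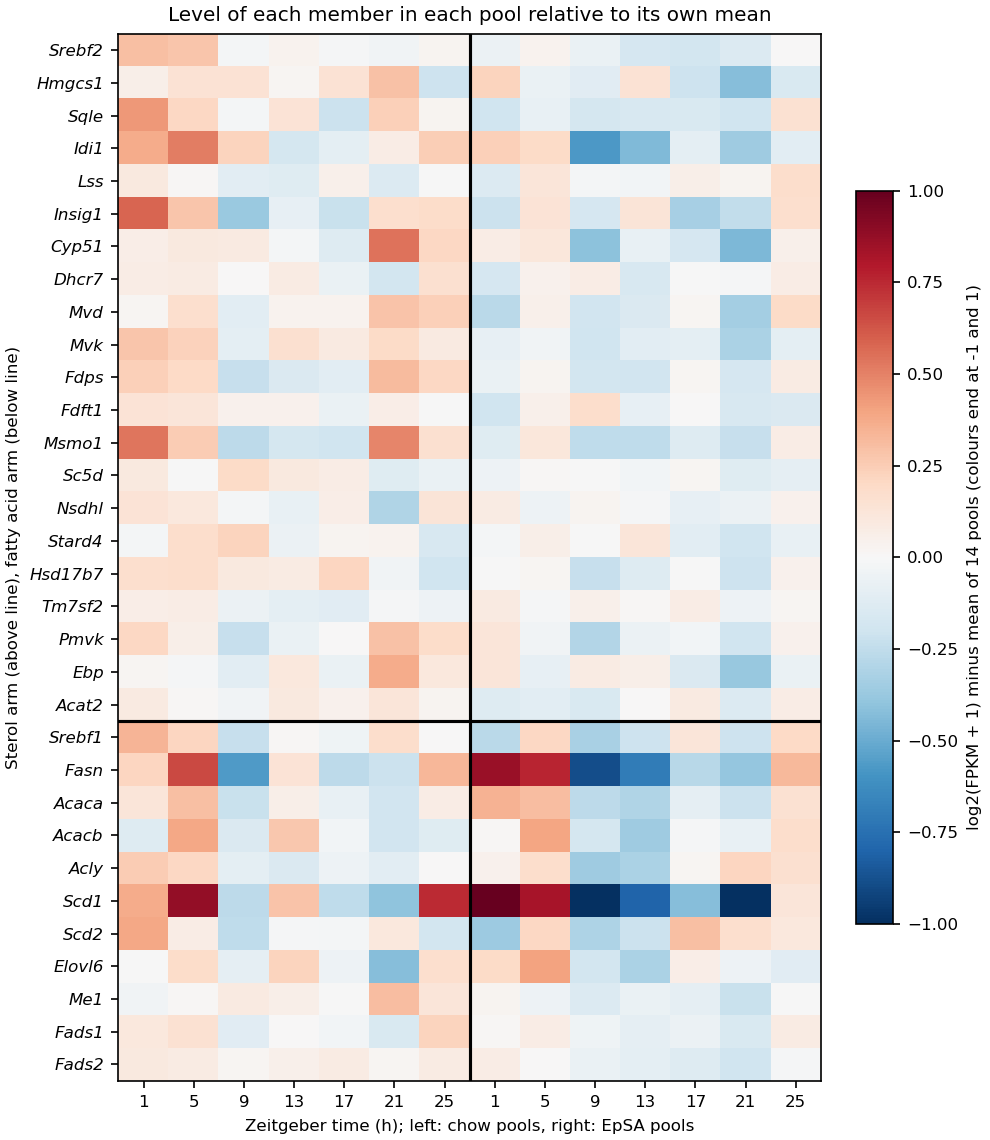
Each cell is the level of 1 gene in 1 pool, as log2(FPKM + 1) minus that gene's mean over the 14 pools, with the 21 sterol members above the line, the 11 fatty acid members below it, chow on the left and EpSA on the right. Scd1 and Fasn carry the strongest colours, from 136 FPKM for Scd1 in EpSA at ZT 1 to 20.6 at ZT 9, and most sterol members are redder on the chow side.

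No member passed the test for a difference between the diets, and most were somewhat lower in EpSA. EpSA was compared with chow at the same time by limma on log2(FPKM + 1), with time as a factor, and p-values were adjusted over 13344 genes. Of the 32 members, 0 passed an adjusted p of 0.05 in either direction, against 2 genes lower in EpSA (0.0150%) and 1 higher (0.00749%) among all tested. The test made few calls anywhere, so the members are described by size and direction. The estimate was below 0, lower in EpSA, for 29 of the 32 members, against 53.9% of all genes, and for 27 of 32 with quantile normalization. At an unadjusted p under 0.05, 8 of 32 were lower (background 10.3%) and 0 were higher (8.76%), and the 8 became 5 without ZT 5, without ZT 13 or without ZT 21. The median difference was -0.14 on the log2 scale in the sterol arm, where 19 of 21 were below 0, and -0.05 in the fatty acid arm, where 10 of 11 were. Over all genes it was -0.01. In 4 members, Mvk, Mvd, Srebf2 and Fads2, the EpSA pool was below the chow pool at 7 of 7 times, a share of 12.5% against 4.13% of all genes. In every one of the 32, the chow and EpSA pools overlapped when times were set aside, as they did in nearly all genes (all EpSA pools lay below all chow pools in 0.465% and above them in 0.427%).

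**Figure D2:**
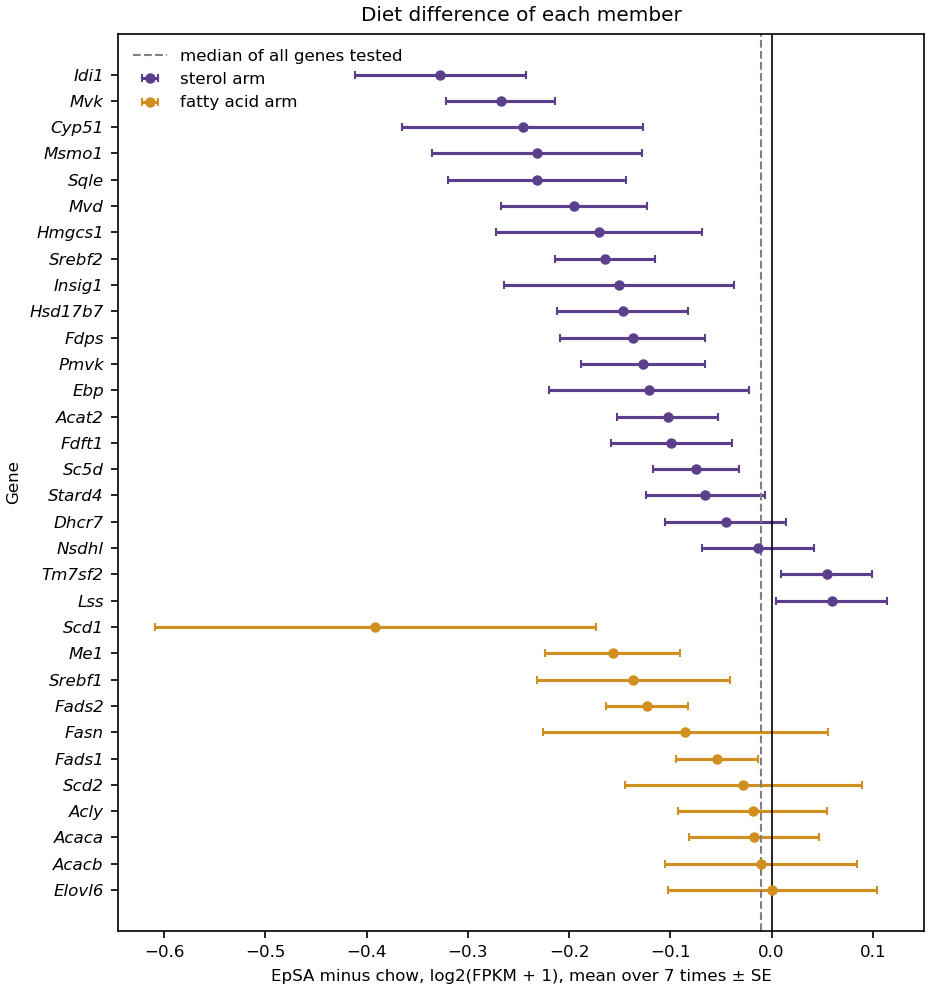
Points are the mean EpSA minus chow difference over 7 times on the log2(FPKM + 1) scale, with bars of 1 SE from limma, which reflect times and not mice. Of the 32 points 29 lie left of 0, the farthest being Scd1 at -0.39 and Idi1 at -0.33, and Lss, Tm7sf2 and Elovl6 lie at or right of it.

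In the sterol arm the regulators came out lower in EpSA without passing the adjusted test. Srebf2 (ENSMUSG00000022463, chromosome 15, 82147181 to 82205379 in GRCm38) ran from 8.48 to 10.97 FPKM in chow, with a median of 8.94, and from 7.55 to 8.99 in EpSA, with a median of 8.28. The gap was widest at ZT 1, with 10.97 in chow and 8.34 in EpSA, and nearly closed at ZT 25, with 8.94 and 8.75. The difference was -0.16 ± 0.05 (SE), with an unadjusted p of 0.00840 and an adjusted p of 0.143 in limma. Insig1, the sterol-sensing retainer of SREBP and itself an SREBP target, ran from 10.3 to 20.8 FPKM in chow and from 10.6 to 15.4 in EpSA, and its difference of -0.15 ± 0.11 came mostly from ZT 1 (20.8 against 11.5) and ZT 21 (15.4 against 11.3). Stard4, a carrier of cholesterol between membranes, stayed between 11.7 and 16.0 FPKM in all pools, with a difference of -0.07 ± 0.06.

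The mevalonate steps held the lowest p-value of the group. Mvk (mevalonate kinase, ENSMUSG00000041939, chromosome 5, 114444269 to 114460591) ran from 2.20 to 3.16 FPKM in chow, with a median of 2.83, and from 1.76 to 2.34 in EpSA, with a median of 2.20. The chow pool of ZT 9 was the only chow pool below the highest EpSA pool. The difference was -0.27 ± 0.05, with an unadjusted p of 0.000692 and an adjusted p of 0.0704, the lowest among the members. Idi1 (isopentenyl diphosphate isomerase, ENSMUSG00000058258, chromosome 13, 8885501 to 8892451) had the larger difference of -0.33 ± 0.08, with an adjusted p of 0.111. Its chow pools ran from 2.98 to 5.41 FPKM with a median of 4.26 and its EpSA pools from 2.02 to 4.30 with a median of 3.19. It was lower in EpSA at 6 of 7 times, and at ZT 17 the values were 3.20 and 3.22. Mvd (mevalonate diphosphate decarboxylase) ran from 20.2 to 26.7 FPKM in chow and from 17.0 to 25.0 in EpSA, a difference of -0.20 ± 0.07. The ranges overlapped widely although each time had the lower value in EpSA.

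The other genes up to squalene epoxide differed by -0.10 to -0.23. Pmvk (phosphomevalonate kinase) differed by -0.13 ± 0.06 and was lower in EpSA at 6 of 7 times. Hmgcs1, the entry enzyme, was lower at 4 of 7 times only, with a difference of -0.17 ± 0.10. Its gap was largest at ZT 21, where chow was at 153 FPKM and EpSA at 92.5. Under the alternatives its difference ran from -0.23 to -0.08. Acat2 differed by -0.10 ± 0.05. Fdps and Fdft1 (squalene synthase) lead to squalene, and their differences were -0.14 ± 0.07 and -0.10 ± 0.06. The highest pool of Fdft1 was EpSA at ZT 9 (7.62 FPKM), the pool with the adrenal cortex genes, whose part was not tested. Sqle (squalene epoxidase) ran from 9.94 to 16.1 FPKM in chow, with a median of 12.9, and from 10.02 to 13.1 in EpSA, with a median of 10.4. Its difference was -0.23 ± 0.09, with an adjusted p of 0.210, and 6 of the 7 EpSA pools lay between 10.02 and 11.1.

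After lanosterol is formed the picture was uneven. Lss (lanosterol synthase) was the highest of the sterol members on the difference scale, at 0.06 ± 0.05, and was lower in EpSA only at ZT 1. Tm7sf2, a sterol reductase, was next at 0.05 ± 0.04. These are the only sterol members above 0. Cyp51 and Msmo1, which strip methyl groups from lanosterol, differed by -0.25 ± 0.12 and -0.23 ± 0.10. In both the chow pool of ZT 21 was among the highest, at 81.9 FPKM for Cyp51 and 7.30 for Msmo1, and EpSA then held 40.7 and 4.03. Hsd17b7, a ketosteroid reductase of the route, differed by -0.15 ± 0.06 (unadjusted p of 0.0481) and was lower at 6 of 7 times. Ebp, Sc5d, Dhcr7 and Nsdhl, which finish the sterol rings and remove the last methyl groups, differed by -0.12, -0.07, -0.05 and -0.01, each with an SE between 0.04 and 0.10. The Nsdhl pools overlapped throughout, with 14.8 to 20.3 FPKM in chow and 17.3 to 19.5 in EpSA.

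In the fatty acid arm the differences were smaller for most members and the spread wider. Srebf1 ran from 4.13 to 6.63 FPKM in chow and from 3.81 to 5.95 in EpSA, with a difference of -0.14 ± 0.10. Fads2 (ENSMUSG00000024665, chromosome 19, 10062765 to 10101746) varied little in chow, with pools between 45.5 and 48.2 FPKM around a median of 47.5 and EpSA pools between 39.0 and 47.4 around 42.8. It was lower in EpSA at 7 of 7 times, by -0.12 ± 0.04 on the log2 scale, with an adjusted p of 0.169. Fads1, the delta-5 desaturase next to it, differed by -0.05 ± 0.04. Me1 ran from 136 to 172 FPKM in chow and from 119 to 141 in EpSA, a difference of -0.16 ± 0.07 (adjusted p of 0.246), and its largest gap was at ZT 21, with 172 and 119. With quantile normalization the Me1 and Fads2 differences were both -0.07.

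Scd1 and Fasn spread most between pools of the 32 members. Scd1 (ENSMUSG00000037071, chromosome 19, 44394455 to 44407879), which makes oleate from stearate, ran from 41.2 to 102 FPKM in chow with a median of 67.1. In EpSA it ran from 20.6 at ZT 9 to 136 at ZT 1 with a median of 40.5, so the highest and lowest pools of the gene were both EpSA pools, 6.61-fold apart. It was lower in EpSA at 6 of 7 times and higher at ZT 1, and the difference of -0.39 ± 0.22 had an unadjusted p of 0.104. Without ZT 1 it was -0.61. Fasn (fatty acid synthase) ran from 5.06 to 13.1 FPKM in chow and from 3.85 to 15.3 in EpSA, 3.97-fold over all pools, with a difference of -0.09 ± 0.14. Acly, Acaca and Acacb, which supply the building blocks, Elovl6, which extends the chain, and Scd2, another stearoyl-CoA desaturase, had differences between -0.03 and 0.00, with SE between 0.06 and 0.12. Each of these 5 changed sign under at least 1 alternative, as did Fasn and Nsdhl.

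Time by time, the sterol arm was lower in EpSA mainly at ZT 1 and ZT 21. The median log2 difference of its 21 members was -0.22 at ZT 1, with 17 lower in EpSA, and -0.41 at ZT 21, again with 17 lower. At ZT 5 it was -0.12 with 18 lower (85.7%, against 59.3% of all genes). At the other 4 times it lay between -0.08 and -0.03, with 12 to 14 lower. The share lower at ZT 9 and ZT 13, 57.1% and 66.7%, was near that of all genes, 56.35% and 61.95%. At ZT 17 and ZT 25 it was 57.1% and 66.7%, against 42.2% and 47.5% of all genes. The medians of all genes at ZT 1 and ZT 21 were -0.03 and 0.07, and 56.6% and 40.3% of all genes were lower there. At ZT 21 the difference was largest for Cyp51 (-0.99), Ebp (-0.75), Msmo1 (-0.72), Hmgcs1 (-0.72) and Mvd (-0.62), and above 0 for Nsdhl (0.24), Dhcr7, Lss and Sc5d. The chow pool of ZT 21 was the highest of the 14 for 7 sterol members and the lowest for 4, and the EpSA pool of ZT 21 was the lowest for 6. The same counts were not made over all genes. The chow pool of ZT 21 also held the highest Kap, the largest summed FPKM of the 14 (435621) and the fewest genes above 0 (27796). The part of these in the result was not tested. At ZT 1 the thick ascending limb markers summed to 1334 FPKM in chow, their highest, and to 765 in EpSA. Macrophage and immune markers summed to 946 in chow and 209 in EpSA at ZT 1, below the 1104 of chow at ZT 13. The part of these pool differences was not tested either. Without ZT 21 the median of the sterol arm was -0.08, with 19 of 21 below 0. The fatty acid arm followed another course, with a median of 0.06 at ZT 1, where Scd1 and Fasn were 0.93 and 0.65 higher in EpSA, and -0.22 at ZT 13, where 11 of 11 were lower against 61.9% of all genes. At ZT 13 Scd1 stood at 67.1 FPKM in chow and 31.0 in EpSA, Fasn at 8.81 and 4.50, and Acacb at 5.36 and 3.13. Without ZT 13 the median of the fatty acid arm was 0.00, with 5 of 11 below 0. Fat markers were lowest in the EpSA pool of ZT 13, at a summed 95.7 FPKM against 343 in chow. At ZT 17 they were higher in EpSA, at 299 against 168, and the median of the fatty acid arm was -0.01. The part of fat tissue in these gaps was not tested.

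**Figure D3:**
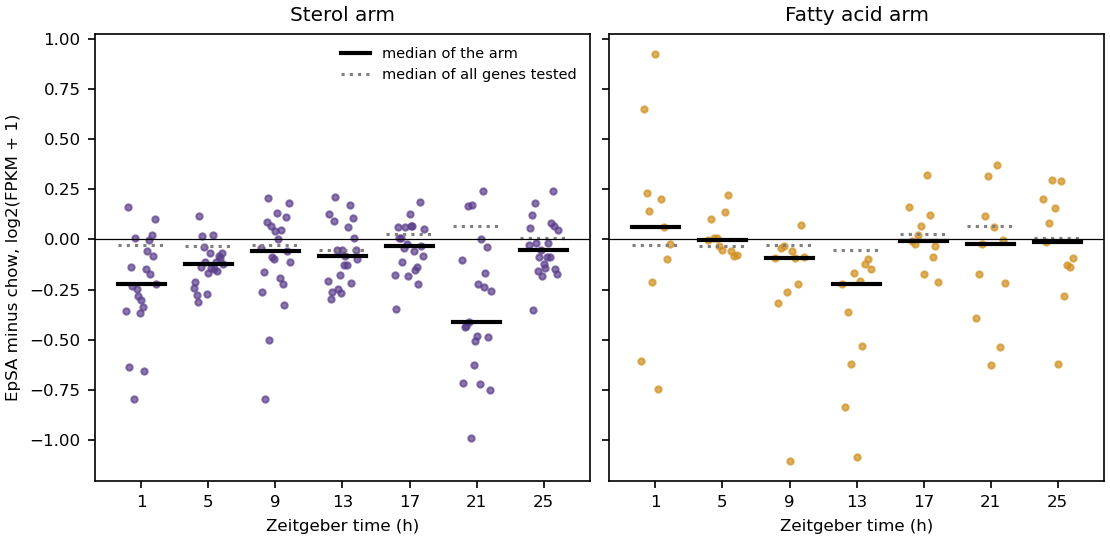
Points are single members at each zeitgeber time, as EpSA minus chow on the log2(FPKM + 1) scale, with 21 sterol members on the left and 11 fatty acid members on the right. Solid bars are the arm's median and dotted bars the median of all genes; the sterol bar is lowest at ZT 21 (-0.41) and the fatty acid bar at ZT 13 (-0.22).

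The repeat of the morning time gave a scale for these gaps, since ZT 1 and ZT 25 are the same clock time on successive days. Within chow, the gap between the ZT 1 and ZT 25 pools was larger than the diet difference in 21 of 32 members (65.0% of all genes). Within EpSA it was larger in 21 of 32 as well (67.0%), and in both diets in 14 of 32 (49.0%). In EpSA the ZT 1 pool held 136 FPKM of Scd1 and the ZT 25 pool 59.8, and in chow the same pools held 20.8 and 15.6 of Insig1. For Mvk the same pairs were 3.16 and 2.64 in chow and 2.23 and 2.20 in EpSA. In chow 17 of 21 sterol members were lower at ZT 25 than at ZT 1, against 60.6% of all genes, and in EpSA 10 of 21, against 50.9%.

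**Figure D4:**
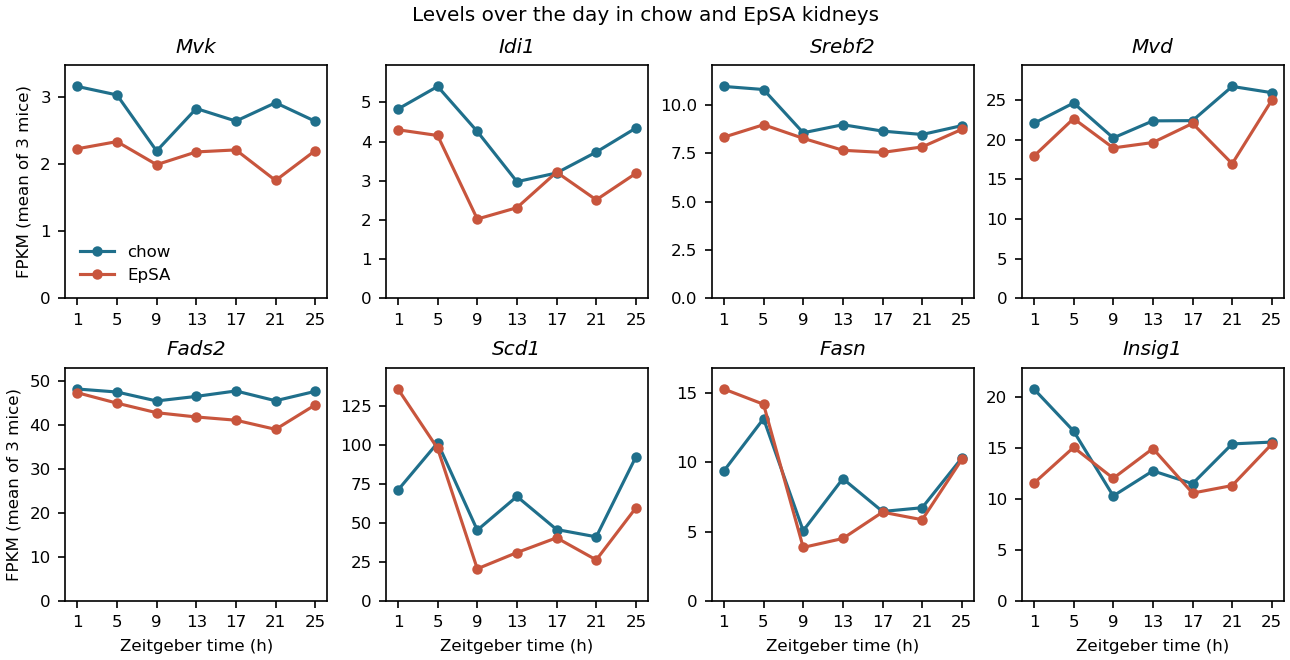
FPKM over zeitgeber time for 5 sterol and 3 fatty acid members, each point the authors' mean over the 3 mice listed, from 0 on each axis. The EpSA line of Mvk runs below that of chow at all 7 times, between 1.76 and 2.34 FPKM, whereas the lines of Scd1 and Fasn cross.

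No member passed the test for a daily rhythm. A cosine of 24 h was fitted to each diet's 7 pools with limma, and 0 of 32 members passed an adjusted p of 0.05 in chow (0.0674% of all genes) and 0 of 32 in EpSA (0.0525%). At an unadjusted p under 0.05 there were 5 in chow, all of the sterol arm (Idi1, Insig1, Fdps, Msmo1 and Pmvk), against 10.4% of all genes. In EpSA there were 3, all of the fatty acid arm (Fasn, Acaca and Acly), against 8.52%. Idi1 in chow had an amplitude of 0.31 ± 0.05 on the log2 scale with a peak at 3.96 ± 0.63 h, an unadjusted p of 0.00135 and an adjusted p of 0.183. It was highest at ZT 5, at 5.41 FPKM, and lowest at ZT 13, at 2.98. Fdps, Pmvk, Msmo1 and Insig1 peaked in chow at 23.95, 22.5, 0.07 and 0.87 h, close to lights on. Fasn in EpSA had an amplitude of 0.72 ± 0.19 with a peak at 1.84 ± 1.13 h (adjusted p of 0.538). The amplitude was larger in chow than in EpSA for 15 of 21 sterol members and for 3 of 11 fatty acid members, as point estimates, and for 53.8% of all genes. The difference of rhythm between diets passed in 0 of 32 (0% of all genes), and its unadjusted p was under 0.05 in 0 of 32 (4.63%), so these amplitudes are not shown to differ. In the authors' deposited table, Idi1, Pmvk, Fdps and Tm7sf2 had a meta2d p of 0.00203, 0.00497, 0.00568 and 0.0206 in chow (11.8% of all genes were under 0.05). In EpSA the authors' deposited table gave 1 member, Srebf2, a p of 0.000556 (9.82%) with a phase of 5.13 h. Its q-value in the authors' deposited table, 0.313, was the lowest of any member in either diet. The cosine of Srebf2 in EpSA had an amplitude of 0.11 ± 0.04 and an unadjusted p of 0.0654 in limma.

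Part of the fatty acid arm followed the fat tissue markers from pool to pool. Over the 14 pools each member was correlated with the mean log2 level of the 12 fat markers, and the p-values of 32 permutation tests were adjusted together. In the fatty acid arm 5 of 11 passed, all positive (Fasn, Acaca, Acacb, Scd1 and Elovl6), and in the sterol arm 1 of 21 did (Idi1), by Pearson's r. Only the 32 members were correlated, so the share of all genes that would pass is not known. The median Pearson r was 0.63 in the fatty acid arm and 0.28 in the sterol arm. Elovl6, an elongase of long-chain fatty acids, had r = 0.87 (permutation p of 0.00012, adjusted 0.00213) and Spearman rho = 0.87 (permutation p of 0.00017). Without the 2 pools farthest from the median of the markers r was 0.81, within chow it was 0.79 (exact permutation p of 0.0288), and within EpSA 0.97 (exact permutation p of 0.00119). For Scd1 r was 0.79 and rho 0.81 (permutation p of 0.00082 and 0.00068, adjusted 0.00525 and 0.00736), 0.78 without the farthest 2 pools, 0.89 within chow and 0.75 within EpSA (exact permutation p of 0.0165 and 0.0514). Fasn, Acaca and Acacb had r of 0.82, 0.82 and 0.84, with adjusted permutation p-values between 0.00213 and 0.0024. Their r was between 0.719 and 0.766 without the farthest 2 pools and between 0.805 and 0.892 within a diet (exact permutation p between 0.0101 and 0.0232). For Idi1 r was 0.67 (adjusted permutation p of 0.0447) and rho 0.64 (adjusted permutation p of 0.0687, which does not pass). Within chow its r was 0.36 and within EpSA 0.87 (exact permutation p of 0.413 and 0.00992). The chow pools are too few to show whether the relation was absent there, and the difference between diets was not tested. Mvk had r = 0.39 (permutation p of 0.165).

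**Figure D5:**
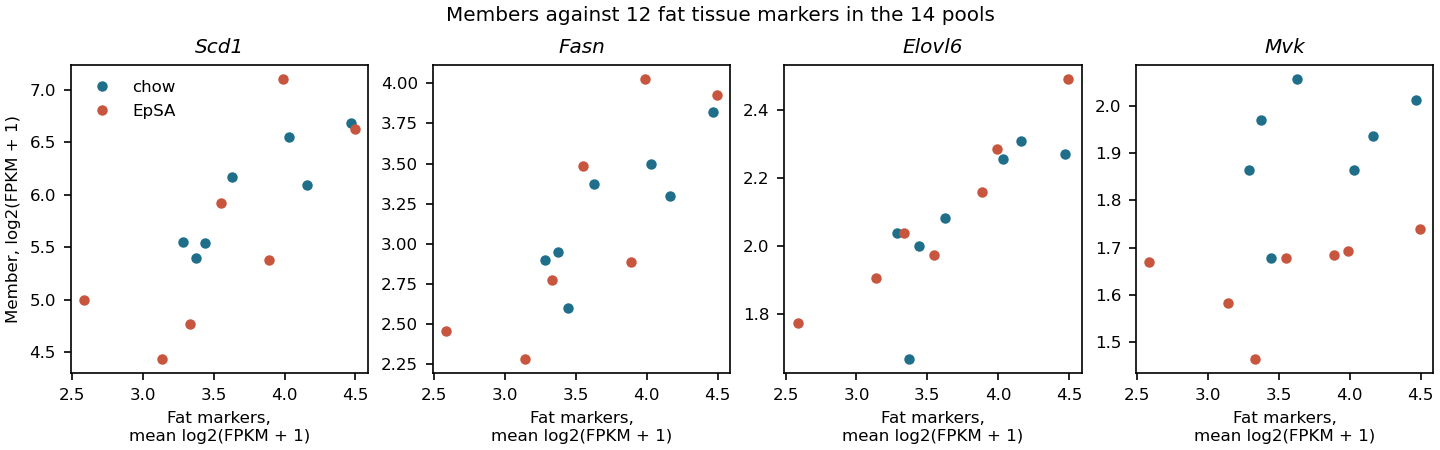
Each point is a pool, with the mean log2(FPKM + 1) of 12 fat tissue markers on the horizontal axis and the member's log2(FPKM + 1) on the vertical axis. Scd1, Fasn and Elovl6 are higher where the markers are higher in both diets, with r of 0.79, 0.82 and 0.87, and for Mvk 6 of the 7 chow points lie above all EpSA points.

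The diet differences were refitted with the fat marker level of each pool as a covariate, a check added after the data were seen. The median of the sterol arm was then -0.14, with 19 of 21 below 0, and that of the fatty acid arm -0.02, with 7 of 11 below 0. Mvk was at -0.27 and Scd1 at -0.25, and 0 of 32 members passed the adjusted test. Markers of other cells were counted at an unadjusted p under 0.05, which 10.3% of all genes passed as lower and 8.76% as higher. Of the 10 macrophage and immune markers 7 were lower in EpSA, with a summed 201 to 1104 FPKM in chow and 205 to 267 in EpSA. Of the 6 red cell markers 5 were lower (381 to 709 and 312 to 436 FPKM), and of the 4 thick ascending limb markers 2 were lower (954 to 1334 and 644 to 1012). Of the 6 podocyte markers 5 were higher in EpSA (53.4 to 81.7 and 64.3 to 86.9). Of the 10 proximal tubule markers 3 were higher and 1 lower, of the 8 distal ones 2 higher, and of the 12 fat ones 1 lower. Of the liver, endothelial and tested adrenal ones 0 passed in either direction. The adrenal markers stood out in a single pool, EpSA at ZT 9, with a summed 149 FPKM against 21.2 to 31.3 in the others. A diet test over 7 times says little about such a pool. The part of these in the sterol result was not tested.

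Genes around the same routes were listed as 5 groups of 74 genes, of which 66 were tested, and 0 passed the adjusted test for diet. At an unadjusted p under 0.05, 10 were lower in EpSA and 4 higher, 15.2% and 6.06% of those tested, against 10.3% and 8.76% of all genes. Among 7 other sterol and isoprenoid genes 2 were lower and 0 higher. Tmem97, a sterol-regulated membrane protein, ran from 15.01 to 18.92 FPKM in chow and from 12.2 to 16.9 in EpSA, and was lower at 7 of 7 times, by -0.22 ± 0.07 (adjusted p of 0.147 in limma).

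The machinery that processes SREBP showed small differences. Counts here are again at an unadjusted p under 0.05 in limma, which 10.3% of all genes passed as lower and 8.76% as higher. None of these genes passed adjustment. The genes named for diet were picked for the lowest p-values among the related genes. Of all genes, 4.13% were lower and 3.81% higher in EpSA at 7 of 7 times. Of the 8 genes of that machinery 1 was below 0 at this threshold, Scap, the escort that carries SREBP to the Golgi, which ran from 6.89 to 8.31 FPKM in chow and from 6.73 to 7.37 in EpSA (-0.13 ± 0.04, adjusted p of 0.146, lower at 7 of 7 times). Of the 15 tested genes of sterol uptake, transport, storage and export 2 were lower and 1 higher. Npc2, which hands cholesterol out of lysosomes, was lower at 7 of 7 times by -0.18 ± 0.05 (adjusted p of 0.129). Of the 18 tested genes of fatty acid synthesis and elongation 3 were lower and 3 higher. Elovl2, which lengthens polyunsaturated fatty acids, was higher in EpSA at 7 of 7 times, by 0.26 ± 0.06 (adjusted p of 0.0867), with 2.68 to 4.44 FPKM in chow and 3.44 to 6.21 in EpSA. Mlxipl, which encodes the carbohydrate-responsive activator ChREBP, was also higher at 7 of 7 times, by 0.12 ± 0.04. Of the 18 triglyceride and phospholipid genes 2 were lower and 0 higher. Gpat4, a glycerol-3-phosphate acyltransferase, was lower at 7 of 7 times, by -0.19 ± 0.06 (adjusted p of 0.164 in limma), with 12.2 to 13.2 FPKM in chow and 9.21 to 13.0 in EpSA. In the cosine tests the lowest p-values in chow were those of Chka, Nr1h3 and Mogat1 (unadjusted 0.0248, 0.0287 and 0.0305), and in EpSA those of Aacs, Rnf139 and Mylip (0.00158, 0.00792 and 0.0162), none of which passed adjustment.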

How the data were processed

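Total RNA of 42 kidneys was read on an Illumina Novaseq, per the labels' protocols. Aligner, counting, strand use, build, annotation and scaling are not given in the sources used here. For each diet the authors deposited 1 table, whose values were read as FPKM although the headers name no unit. The last decimal is always 0, 3 or 7, as in a mean of 3, so a column was taken to be the mean that the authors made over 3 mice. The treated table carries another abbreviation, and the link to EpSA is the file name in those samples' descriptions. Depth is unknown. P-values and q-values of rhythm, phases and the other meta2d columns are the authors' own, per the file headers.

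The 13344 genes whose mean over the pools was 1 FPKM or more entered limma 3.58.1 (R 4.3.3) as log2(FPKM + 1), and p-values were adjusted by Benjamini-Hochberg. Diet was fitted with time as a factor (6 residual degrees of freedom), a 24 h cosine within a diet (4), and its interaction with diet (8). Each mean was 1 sample, so errors reflect times, not mice. Fold changes on this scale understate those of low genes. Correlations used 100000 permutations, or all 5040 orders within a diet. The models were tested on simulated data. Members and lists were chosen with earlier results of these data known. All 32 members are named. Related genes are named by rule: the 6 lowest p for diet and the 3 lowest for the cosine in each diet. Fat and adrenal markers are named by value and other lists by counts, except Kap, Slc22a7 and Slc5a12, chosen after their values were seen. Alternatives covered the pseudocount, filter, scaling, rhythm statistic, leaving out each time, and a fat marker covariate. Other steps ran in Python 3.11.15 (numpy 2.4.6, pandas 2.3.3, scipy 1.17.1). Some genes of these routes are not reported here, and counts over the lists of related genes leave them out.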

Additional observations from a re-analysis of the deposited data

Results flagged for a closer look

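Over 64 groups of 7 pools, 1 held a pool far from the others: Sqle in EpSA, where the ZT 25 pool stood at 13.1 FPKM against a median of 10.4. On the log2(FPKM + 1) scale, its gap to the next pool was 0.632 of the whole range. That exceeds Dixon's 95% critical value for 7 pools, and chance alone flags about 1 group in 20, which is 3.2 of 64. No cause was tested.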

How the results depend on the processing

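No paired analysis was possible because the deposited columns are means over mice and carry no replicate numbers. In every alternative run, 0 of the 32 members passed the adjusted test for diet, for rhythm in either diet or for the difference of rhythm (a mean of at least 5 left 14 sterol and 8 fatty acid members to test). The lowest adjusted p of Mvk for diet was 0.0649. Over all genes the diet calls, 1 higher and 2 lower as reported, were 32 higher and 24 lower with a pseudocount of 5, 41 and 30 with a mean of at least 5, 6 and 5 with no filter, 5 and 4 with ZT 25 taken as ZT 1, and 4 and 1 with the fat marker covariate. With single times left out they were 0 to 3 and 0 to 2. Rhythm calls ran from 0 to 9 in chow and from 0 to 7 in EpSA. Members lower at an unadjusted p under 0.05 numbered 5 to 9, and higher 0 to 1. The median of the sterol arm ran from -0.16 to -0.08 and that of the fatty acid arm from -0.10 to 0.00. Differences of single members kept their sign in 449 of 470 values. Signs turned with quantile normalization for Acly (0.0292), Scd2 (0.0179), Nsdhl (0.0272) and Elovl6 (-0.0198), and with the fat marker covariate for Acaca (0.0222), Fasn (0.0174) and Acacb (0.0492). With single times left out the ranges were -0.056 to 0.0099 for Nsdhl, -0.208 to 0.0397 for Fasn, -0.059 to 0.04 for Acaca, -0.0615 to 0.0917 for Acacb, -0.0751 to 0.0219 for Acly, -0.0862 to 0.0922 for Scd2 and -0.061 to 0.0896 for Elovl6. The cause was not tested. Unknown depth and the lack of values per mouse limit every result.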
